A study of Mus musculus with 6 samples.

Results

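The prosurvival BCL2 family comprises 7 of the 16254 genes in the count table of eosinophils treated with TH2 cell extracellular vesicles (EVs): Bcl2, Bcl2l1 (which encodes BCL-XL), Mcl1, Bcl2l2 (BCL-W) and the mouse A1 paralogs Bcl2a1a, Bcl2a1b and Bcl2a1d. They were taken by gene symbol, all 7 were listed, and all 7 passed the filter on low counts. Cell death through the mitochondrial pathway is set by a balance within the BCL2 family. Prosurvival members bind and hold in check the effectors BAX and BAK and the BH3-only proteins that trigger them, and when effectors are released they permeabilize the mitochondrial outer membrane, so that cytochrome c reaches the apoptosome and caspases are activated. Eosinophils are short-lived cells that undergo apoptosis when survival cytokines such as IL-5, IL-3 and GM-CSF are withdrawn.

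Bulk RNA sequencing covered 3 sham-treated and 3 EV-treated cultures of eosinophils grown from the bone marrow of C57BL/6 mice aged 6 to 12 weeks. Marrow cells were given FLT3 ligand and stem cell factor and then IL-5, and on day 12 of culture they received 5e9 EVs per ml from TH2 cells restimulated through the T-cell receptor, or the same volume of fresh medium put through that isolation, for 24 h. The sham control thus shares the isolation procedure but not the T-cell culture. The cells were a bulk culture, so that fewer cells of a type and less RNA per cell cannot be told apart. The number of mice behind each replicate is not given in the sources used here.

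Total counts ranged from 23697620 to 32808674 in the sham-treated and from 32260914 to 37874426 in the EV-treated libraries. Markers are called higher or lower at an edgeR adjusted p under 0.01, where 12.1% of all genes tested were higher with EVs and 11.6% lower. All 12 eosinophil markers were detected, and 8 of them were higher with EVs, with summed levels of 942207 to 1186850 normalized counts in sham-treated and 1344100 to 1501580 in EV-treated samples. Of the 9 macrophage and monocyte markers 7 were lower, among them C1qb, and 2 were higher, Adgre1 and Ly6c2 (summed 55367 to 70085 in sham-treated and 66880 to 72606 in EV-treated samples). Of the 8 neutrophil markers tested 2 were higher, Ly6g and Cxcr2, and 3 were lower, Ltf, Camp and Mmp8 (summed 17372 to 20833 and 18001 to 21554). Of 5 basophil and mast cell markers tested 4 were higher (summed 3559 to 4598 and 9513 to 11157). Of the 8 T-cell markers 6 had a row and their summed levels were 42.5 to 138 and 38.0 to 77.1, with Cd2 at 0 in all 3 sham-treated samples. Elane, Cd3e and Trbc2 had no row, and the part of these cell types in the results was not tested.

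Prosurvival genes rose in EV-treated eosinophils, although not every member did. At the threshold used throughout (edgeR quasi-likelihood test, Benjamini-Hochberg adjusted p under 0.01), 4 of the 7 members were higher with EVs, where 12.1% of the 13498 genes tested were, and 0 were lower, where 11.6% of all genes were. Those 4 were Bcl2, Bcl2l1, Mcl1 and Bcl2a1a, and in each the 3 EV-treated samples lay above the 3 sham-treated samples, as they did in 24.8% of all genes. Together with Bcl2l2, which lay below, 5 of 7 members had groups that did not overlap, against 49.6% of all genes. The median log2 fold change over the 7 members was 0.83, against -0.014 over all genes tested. With library totals in place of TMM scaling, the median of all genes shifted by -0.149 and the calls over all genes moved from 1632 higher and 1572 lower to 1036 higher and 2342 lower, while the count of members called stayed at 4 higher and 0 lower. Counts of the 7 members together made up 0.0802% to 0.0838% of each sham-treated library and 0.122% to 0.129% of each EV-treated library.

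**Figure D1:**
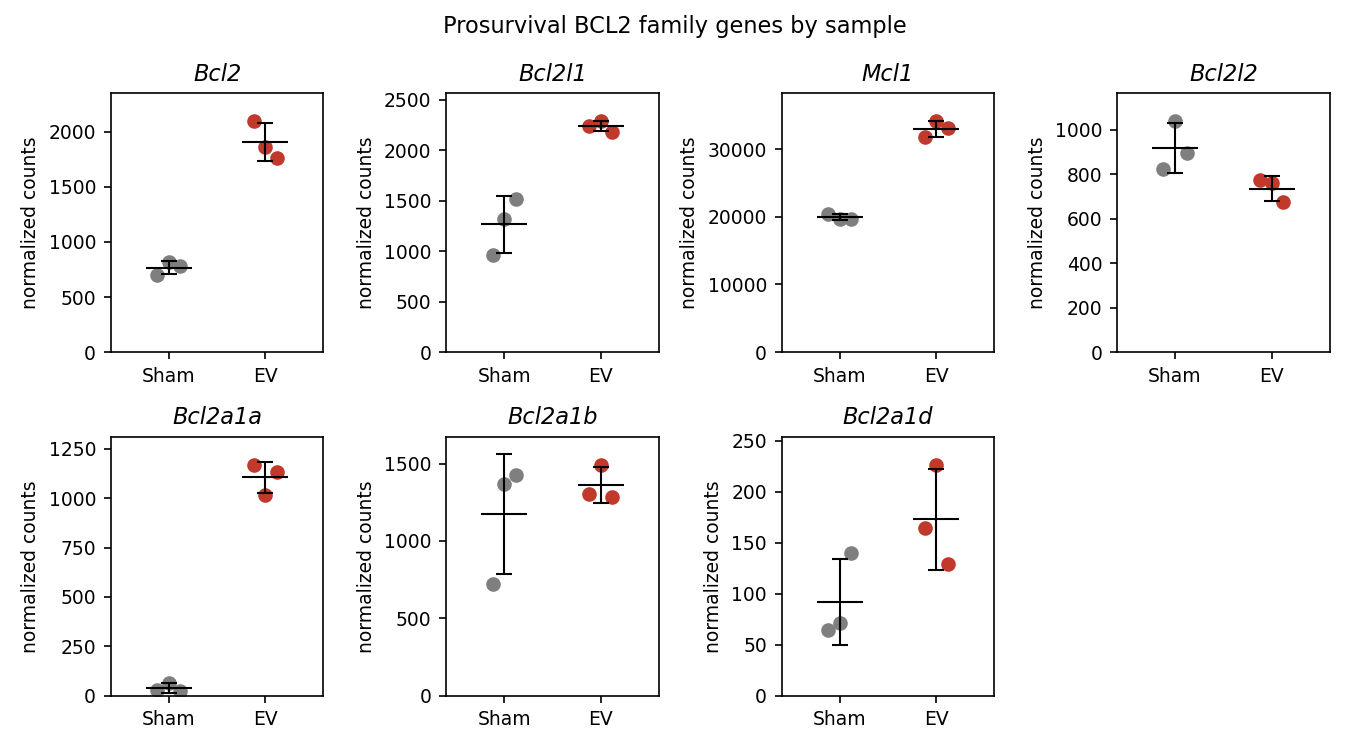
Normalized counts (y axes, linear from 0, a separate scale for each gene) of the 7 prosurvival genes in the 3 sham-treated (grey) and 3 EV-treated (red) samples, with horizontal bars for the mean and whiskers for the SD. The EV-treated samples lie above the sham-treated samples for Bcl2, Bcl2l1, Mcl1 and Bcl2a1a and below them for Bcl2l2, and the groups overlap for Bcl2a1b and Bcl2a1d.

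Bcl2a1a, the A1 paralog at chr9:88956900-88962419 (GRCm38, plus strand), had the largest change of the family and ranked 40 of 13498 genes by log2 fold change. A1 proteins are prosurvival BCL2 relatives of hematopoietic cells whose genes are known to be induced by cytokine and NF-κB signaling, and mice carry several near-identical copies. Normalized counts of Bcl2a1a were 27.0, 66.2 and 24.3 in sham-treated replicates 1 to 3 and 1169.9, 1016 and 1131 in EV-treated replicates 1 to 3. The rounded counts behind them were 30, 54 and 20 in the sham-treated and 1171, 1185 and 1299 in the EV-treated libraries. The gene was thus the lowest of the family in every sham-treated sample and had 1016 to 1169.9 normalized counts with EVs, with no overlap. The mean normalized count rose 28.2-fold, and it was 39.2 ± 23.4 in sham-treated and 1105 ± 80.1 in EV-treated samples (SD, n = 3 each). The log2 fold change was 4.84 (SE 0.288, edgeR adjusted p = 1.21e-06). Fits that omitted 1 sample gave values between 4.62 and 5.41.

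Bcl2a1b, at chr9:89199209-89207827 on the plus strand, supplied most A1 counts in sham-treated cells. Normalized counts of Bcl2a1b were 724, 1369 and 1424 in sham-treated and 1307, 1493 and 1287 in EV-treated samples. Sham replicate 1 lay well under the other samples, and the remaining 5 samples were within the range of 1287 to 1493. The log2 fold change of 0.22 (SE 0.209, edgeR adjusted p = 0.455) did not pass the test, and without sham replicate 1 it was -0.029 (adjusted p = 0.824).

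Bcl2a1d, at chr9:88723285-88731914 on the minus strand, was the least abundant A1 paralog in EV-treated cells. It had 64.0, 71.1 and 139.7 normalized counts in sham-treated and 164, 226 and 129 in EV-treated samples. The groups overlapped, since EV replicate 3 lay under sham replicate 3. The log2 fold change was 0.92 (SE 0.342, edgeR adjusted p = 0.0602).

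The 3 A1 genes lie within 484.5 kb of chromosome 9 and differ so little that reads can be exchanged between them. Their coding sequences of 516 bases (without the stop codon) differ at 11 positions between Bcl2a1a and Bcl2a1b, at 7 between Bcl2a1a and Bcl2a1d, and at 6 between Bcl2a1b and Bcl2a1d. The first 60 coding bases hold 5 of the 11 differences between Bcl2a1a and Bcl2a1b and are shown because reads over them can tell the genes apart. Capitals mark the positions that differ among the 3 genes, counted from 1 at the first base of the start codon (GENCODE vM21 transcripts, 5′ to 3′).

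Bcl2a1a: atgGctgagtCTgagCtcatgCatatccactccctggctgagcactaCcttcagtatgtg
Bcl2a1b: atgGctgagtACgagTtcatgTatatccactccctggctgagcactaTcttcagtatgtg
Bcl2a1d: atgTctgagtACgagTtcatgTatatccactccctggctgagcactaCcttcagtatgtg

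Within this stretch, C11A, T12C, C16T, C22T and C48T give the base of Bcl2a1a, its position and the base of Bcl2a1b. Except for C48T, the same changes separate Bcl2a1a from Bcl2a1d, so that these 4 bases of Bcl2a1a occur in neither of the other genes, and G4T marks Bcl2a1d. Of the 31-base words in the Bcl2a1a transcript, 161 of 789 (20.4%) occurred in no other gene, against 88 of 787 (11.2%) in Bcl2a1b and 91 of 833 (10.9%) in Bcl2a1d. Bcl2a1a shared 616 words with Bcl2a1d and 446 with Bcl2a1b. The first bases of its own words formed 5 unbroken runs along the transcript, and the rest of the transcript gave words that also occur in another gene. For Bcl2, Bcl2l1 and Mcl1 at least 99.4% of words were their own.

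**Figure D2:**
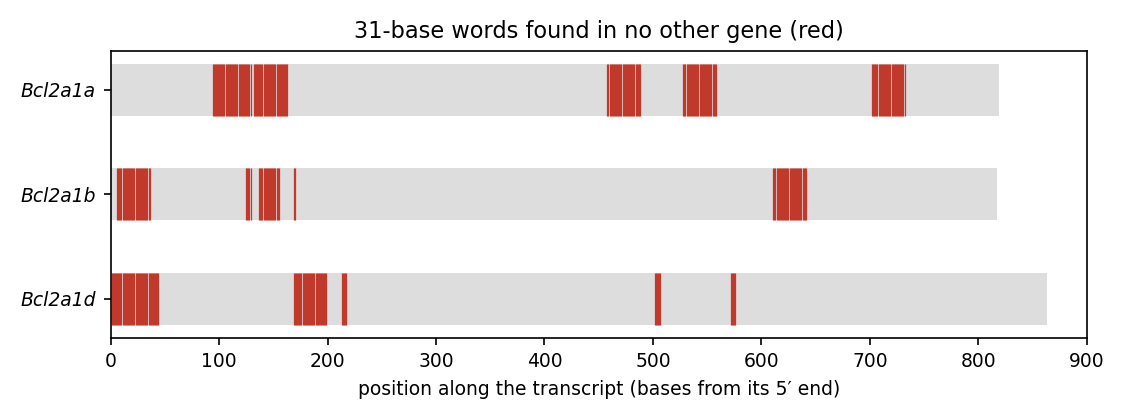
Position of each 31-base word found in no other gene (red, drawn at its first base) along the transcripts of Bcl2a1a, Bcl2a1b and Bcl2a1d (grey bars, x axis in bases from the 5′ end). Red marks 161 such words in Bcl2a1a, in 5 unbroken runs of which the first 2 lie so close that they nearly touch, 88 in Bcl2a1b and 91 in Bcl2a1d.

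The make-up of the estimated A1 counts changed along with their sum. How exactly these shares are known is limited by the sequence that the 3 genes have in common. Bcl2a1a made up 3.30%, 4.37% and 1.497% of the summed counts of the 3 paralogs in sham-treated samples and 44.3%, 37.1% and 44.4% in EV-treated samples. The groups were far apart, with means of 3.06% ± 1.45 (SD, n = 3) and 41.9% ± 4.17 (SD, n = 3). The share of Bcl2a1b moved the other way, from 89.8% ± 1.05 to 51.5% ± 2.70 (SD, n = 3 each). The share of Bcl2a1d was 7.13% ± 2.15 and 6.52% ± 1.63 (SD, n = 3 each). With 3 samples against 3, an exact permutation test (two-sided) cannot go under p = 0.1, which is the value for the shares of Bcl2a1a and Bcl2a1b, and the share of Bcl2a1d gave p = 0.8.

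**Figure D3:**
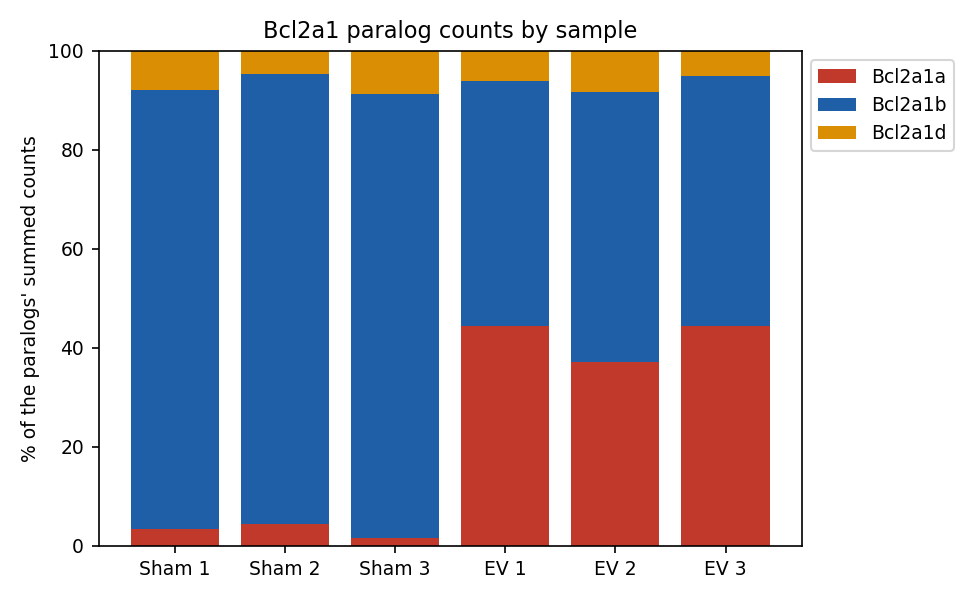
Percent of the summed counts of Bcl2a1a (red), Bcl2a1b (blue) and Bcl2a1d (orange) in each of the 3 sham-treated and 3 EV-treated samples, as stacked bars from 0 to 100. Bcl2a1a takes 1.497% to 4.37% of the counts in sham-treated and 37.1% to 44.4% in EV-treated samples.

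Adding the 3 A1 rows into 1 gives a level that does not depend on how reads were divided among these 3. The sum was 815, 1506 and 1588 normalized counts in sham-treated and 2640.5, 2736 and 2547 in EV-treated samples, with no overlap between the groups. It rose 2.03-fold (log2 fold change 1.02, SE 0.199, edgeR adjusted p = 0.00269). Gm29094, a gene model that overlaps Bcl2a1b and shares 372 words with it, was not part of the sum, and adding it gave a log2 fold change of 1.03. The call was lost without EV replicate 2 (adjusted p = 0.0123) and without EV replicate 3 (0.0106).

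The DNA just upstream of the 3 A1 genes is nearly the same too, and it is shown beside levels that differ between the genes. The RefSeq windows (GRCm38.p6) ran from 250 bases before to 50 after the annotated start. Of aligned bases, 254 of 256 matched between Bcl2a1a and Bcl2a1b and 288 of 294 between Bcl2a1a and Bcl2a1d. Between Bcl2a1b and Bcl2a1d 247 of 250 did. Gaps were not counted in these numbers. Bcl2a1d lacks the bases gaggaa that stand just before the capitals in Bcl2a1a and Bcl2a1b. The windows are chr9:88956670-88956969 (plus strand) for Bcl2a1a, chr9:89199023-89199322 (plus strand) for Bcl2a1b and chr9:88731801-88732100 (minus strand) for Bcl2a1d, each 5′ to 3′ on its own strand, with GAGGAAGT in capitals.

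Bcl2a1a: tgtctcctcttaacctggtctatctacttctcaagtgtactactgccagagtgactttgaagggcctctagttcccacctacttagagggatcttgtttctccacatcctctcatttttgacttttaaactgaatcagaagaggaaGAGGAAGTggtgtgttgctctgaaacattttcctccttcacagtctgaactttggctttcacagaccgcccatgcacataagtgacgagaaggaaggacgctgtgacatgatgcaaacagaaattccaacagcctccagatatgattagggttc
Bcl2a1b: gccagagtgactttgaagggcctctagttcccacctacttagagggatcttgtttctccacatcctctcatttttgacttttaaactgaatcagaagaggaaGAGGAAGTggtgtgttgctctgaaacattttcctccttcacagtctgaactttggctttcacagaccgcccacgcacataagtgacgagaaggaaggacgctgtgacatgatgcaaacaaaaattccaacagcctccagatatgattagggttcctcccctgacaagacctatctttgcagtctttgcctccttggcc
Bcl2a1d: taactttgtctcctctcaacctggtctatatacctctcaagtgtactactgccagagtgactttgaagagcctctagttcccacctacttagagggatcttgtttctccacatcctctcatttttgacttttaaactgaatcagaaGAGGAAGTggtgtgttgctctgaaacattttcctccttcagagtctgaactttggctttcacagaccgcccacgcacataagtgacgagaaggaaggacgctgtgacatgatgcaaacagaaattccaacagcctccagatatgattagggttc

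GAGGAAGT, which holds the core bound by ETS factors such as PU.1, stood once in each of these windows on the strand shown, 104 bases before the annotated start of Bcl2a1a and Bcl2a1d and 148 before that of Bcl2a1b, whose annotated start lies further downstream. It was found on either strand in 3.2% of the 32851 windows of all genes, and in no window of Bcl2, Bcl2l1, Mcl1 or Bcl2l2. TTCNNNGAA, the spacing bound by most STAT factors, was in 8.3% of all windows and in none of any of the 7 genes. TTC and GAA spaced by 4 bases, the form preferred by STAT6, were in 6.95% of all windows and, among members, in 1 of the 3 windows of Bcl2l1. GGG and TTTCC spaced by 2 bases, a form of the NF-κB motif, were in 1.63% of all windows, in 1 of Bcl2l1 and in that of Mcl1. GGAA and TCCCC spaced by 1 base, another NF-κB form, were in 0.35% of all windows and in none of the members. All motifs were searched on both strands, no match shared bases with another, and a match in such a window is a description of letters only.

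Bcl2, the founding member, which protects many lymphoid and myeloid cells at the mitochondrion, rose in every EV-treated sample. The gene lies at chr1:106538178-106714274 (minus strand), and its normalized counts were 700.1, 816 and 779 in sham-treated and 2094, 1859 and 1764 in EV-treated samples. The lowest EV-treated sample, at 1764, lay far above the highest sham-treated one, at 816. The mean was 2.49-fold higher, and the log2 fold change was 1.32 (SE 0.0945, edgeR adjusted p = 3.95e-06). Bcl2 and Bcl2a1a were the 2 members called with a log2 fold change of at least 1, where 3.1% of all genes were, and 0 members were lower by as much, where 6.35% were.

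Bcl2l1, at chr2:152780668-152831728 (minus strand), encodes BCL-XL, and it rose as well, from a sham-treated group with a wide spread. It had 959.6, 1324 and 1513 normalized counts in sham-treated and 2244, 2288 and 2186 in EV-treated samples. Sham replicate 1 was again the lowest of its group, while the EV-treated samples lay close together. The log2 fold change was 0.83 (SE 0.137, edgeR adjusted p = 0.00103), and it fell to 0.67 without sham replicate 1 with the call retained (adjusted p = 0.000211). The sum of the 9 macrophage and monocyte markers was also lowest in sham replicate 1, at 55367, 70085 and 69242 normalized counts in sham replicates 1 to 3, with C1qb at 3128, 6296 and 5701, and their part in the spread of Bcl2l1 and Bcl2a1b was not tested. In EV-treated replicates 1 to 3 the 9 markers summed to 66880, 69243 and 72606, and C1qb had 498, 1065 and 1134.

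Mcl1, whose protein is short-lived and is known to be needed by neutrophils and other granulocyte-lineage cells, was by far the most abundant member and rose with little spread. Mcl1 lies at chr3:95658788-95663176 (plus strand). Its normalized counts were 20422, 19660.2 and 19734 in sham-treated and 31717, 34116 and 33085 in EV-treated samples. The groups were separate, and the spread within each was under the difference between them. The rise was 1.65-fold (log2 fold change 0.73, edgeR adjusted p = 3.58e-06), and it lay between 0.58 and 0.76 over all alternatives, the lowest being that with library totals alone. Mcl1 made up 82.5% ± 3.15 of the summed counts of the 7 genes in sham-treated and 81.4% ± 0.947 in EV-treated samples (SD, n = 3 each), shares that are per count and not per length.

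Bcl2l2, at chr14:54883377-54888234 (plus strand), encodes BCL-W, which is best known for its need in sperm formation. It was the only member with every EV-treated sample under every sham-treated sample, at 823, 1039 and 894 against 774, 760.3 and 674 normalized counts. The gap between the groups was narrow. The log2 fold change of -0.32 (SE 0.111) did not pass at 0.01 (edgeR adjusted p = 0.0479), and over all alternatives the adjusted p ranged from 0.0107 to 0.203. Groups lay in this order in 24.7% of all genes. Of its 31-base words 12.6% also occurred in Gm20521, a gene model that overlaps it.

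Per kilobase of the longest protein-coding transcript, the order of levels within the family differed between the groups below Mcl1 and Bcl2a1b. In sham-treated cells the normalized counts per kilobase were 5833 ± 123 for Mcl1, 1435 ± 476 for Bcl2a1b, 493 ± 109.5 for Bcl2l1, 241 ± 28.9 for Bcl2l2, 106 ± 8.24 for Bcl2, 106 ± 48.5 for Bcl2a1d and 47.8 ± 28.6 for Bcl2a1a (SD, n = 3 each). Each gene from Mcl1 to Bcl2l2 had all its samples above those of the next gene, whereas Bcl2 overlapped Bcl2a1d and Bcl2a1d overlapped Bcl2a1a. In EV-treated cells they were 9647 ± 352 for Mcl1, 1668 ± 139 for Bcl2a1b, 1350.0 ± 97.8 for Bcl2a1a, 872 ± 19.96 for Bcl2l1, 265 ± 23.6 for Bcl2, 200.4 ± 57.2 for Bcl2a1d and 193 ± 14.3 for Bcl2l2. Bcl2a1a moved from rank 7 to rank 3 and Bcl2l2 from rank 4 to rank 7, and with EVs Bcl2 overlapped Bcl2a1d and Bcl2a1d overlapped Bcl2l2. With the median transcript length of each gene in place of the longest, Bcl2l1 stood above Bcl2a1a in EV-treated cells, since 1370.0 stands against 1350.0, and Bcl2l2 stood above Bcl2a1d.

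Within a library, Bcl2 rose more than Mcl1 or Bcl2l1. The ratio of Bcl2 to Mcl1 normalized counts was 0.0343, 0.0415 and 0.0395 in sham-treated and 0.0660, 0.0545 and 0.0533 in EV-treated samples. The ratio of Bcl2 to Bcl2l1 was 0.730, 0.617 and 0.515 in sham-treated and 0.933, 0.813 and 0.807 in EV-treated samples. Both ratios had no overlap between the groups and gave p = 0.1 in an exact permutation test (two-sided), the smallest value it can give. The differences in mean log2 ratio were 0.59 and 0.47.

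Transcripts of the proteins that prosurvival members oppose moved in both directions. Of 8 BH3-only genes, 7 had a row and 6 passed the filter. Of these, 2 were higher and 1 was lower, where 12.1% and 11.6% of all genes were, and the median log2 fold change was -0.061. Bcl2l11, which encodes BIM, a BH3-only protein that drives death after cytokine withdrawal, had 2606, 2458 and 2446 normalized counts in sham-treated and 1322, 1476 and 1326 in EV-treated samples, with no overlap (log2 fold change -0.87, edgeR adjusted p = 1.07e-05). Bid, which links death receptors to mitochondria, rose from 845 ± 92.5 to 1372 ± 33.3 (SD, n = 3 each), by 0.70 on the log2 scale (edgeR adjusted p = 0.00025). Pmaip1 encodes NOXA, which binds MCL1 and A1, and rose from 774 ± 47.9 to 1130.3 ± 62.3 (SD, n = 3 each), by 0.55 on the log2 scale (edgeR adjusted p = 0.000941). Bad, Bmf and Bbc3 (which encodes PUMA) did not pass, with log2 fold changes of -0.093, -0.22 and -0.029. Bik had at most 15.9 normalized counts in any sample and Hrk had no row.

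**Figure D4:**
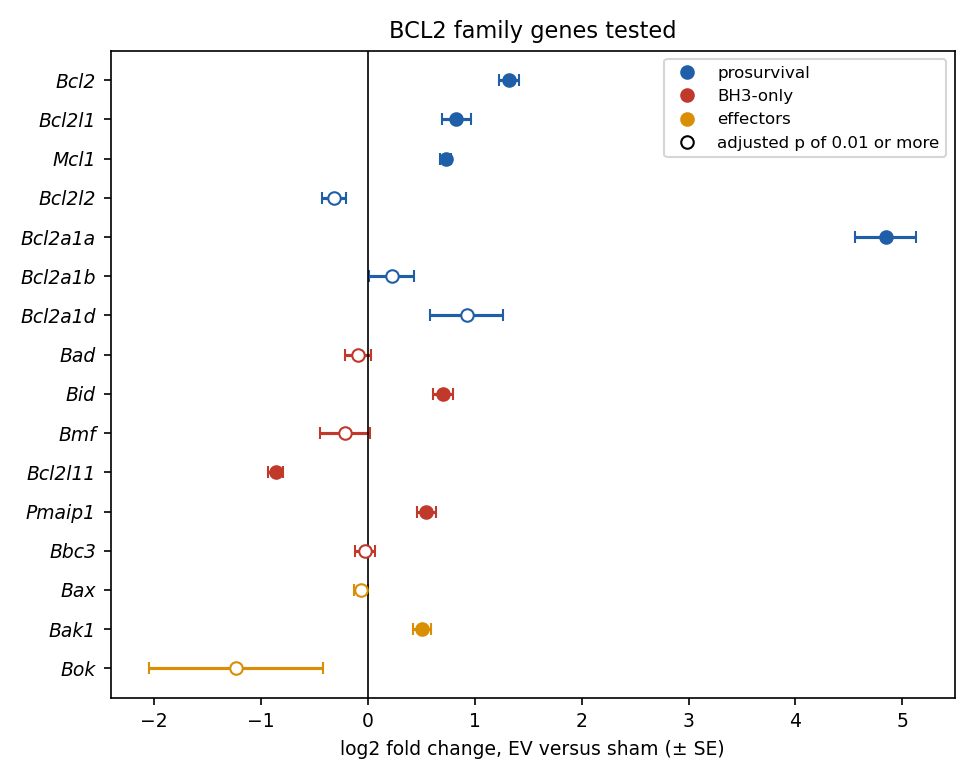
Log2 fold change of EV-treated against sham-treated samples (x axis, ± SE from edgeR, n = 3 per group) for the 7 prosurvival (blue), 6 BH3-only (red) and 3 effector genes (orange) that were tested, with open points for an adjusted p of 0.01 or more. Bcl2a1a, at 4.84, lies far to the right of the others, and Bcl2l11, at -0.87, is the only gene drawn that was lower at this threshold.

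Among the 3 effectors, Bak1 rose from 2926 ± 317 to 4159 ± 224 normalized counts (SD, n = 3 each), by 0.51 on the log2 scale (edgeR adjusted p = 0.00106). Bax, at a log2 fold change of -0.064, did not pass (adjusted p = 0.495), and Bok, with at most 30.4 normalized counts in any sample, did not either (adjusted p = 0.274). Relative to Bcl2l11, the transcripts of Bcl2, Mcl1 and Bcl2l1 were each higher with EVs. The ratio of Bcl2 to Bcl2l11 normalized counts was 0.269, 0.332 and 0.318 in sham-treated and 1.58, 1.26 and 1.33 in EV-treated samples. For Mcl1 the ratio was 7.84, 7.997 and 8.07 against 24.0, 23.1 and 24.96, and for Bcl2l1 it was 0.368, 0.538 and 0.618 against 1.70, 1.55 and 1.65. None of these ratios overlapped between the groups, and each gave the smallest exact permutation p (two-sided) of 0.1. This had to follow, since each numerator lay wholly higher and Bcl2l11 wholly lower with EVs, so it adds no separate test. Bcl2l11 was also the only BH3-only gene called lower, while Bid and Pmaip1 were higher. The ratios are not corrected for length, so that their change between groups carries the information and their size does not.

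Among 8 other genes with BCL2 homology or BH3-like domains, 5 had a row and 4 were tested. Bcl2l13, a mitochondrial relative, was higher by 0.41 on the log2 scale (edgeR adjusted p = 0.00529), but it did not pass in 8 of 17 alternatives. Bnip3, a mitophagy receptor induced by hypoxia, fell by 0.68 on the log2 scale, from 1130.4 ± 40.96 to 706 ± 71.8 normalized counts (SD, n = 3 each) (edgeR adjusted p = 0.000398). Bnip3l and Bcl2l12 did not pass, with log2 fold changes of -0.17 and 0.57.

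Of 8 genes known to control MCL1 protein turnover, 1 was higher and 0 were lower, where 12.1% and 11.6% of all genes were. The share higher was thus near that of all genes, and the median log2 fold change was 0.050. With library totals alone 1 was lower, and with DESeq2 2 were higher. The gene called was Fbxw7, part of a ubiquitin ligase that marks MCL1 for degradation, which rose from 1263 ± 58.6 to 1926 ± 136 normalized counts (SD, n = 3 each), by 0.61 on the log2 scale (edgeR adjusted p = 0.000193). Usp9x, a deubiquitinase that stabilizes MCL1, and Huwe1, which encodes the ligase MULE, had log2 fold changes of 0.059 and -0.014 and did not pass. Gsk3a and Gsk3b, kinases that prime MCL1 for degradation, had log2 fold changes of 0.24 and -0.19 (adjusted p = 0.0137 and 0.0297).

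Downstream of the mitochondrion, Xiap, a caspase inhibitor, rose from 2887 ± 202 to 3781 ± 143 normalized counts (SD, n = 3 each), by 0.39 on the log2 scale (edgeR adjusted p = 0.0018). Htra2, a mitochondrial protease that can relieve caspase inhibition, fell from 805 ± 158 to 435 ± 9.79 (SD, n = 3 each), with a log2 fold change of -0.89.

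Upstream, 7 of 14 genes of cytokine receptors, kinases and transcription factors known to act on prosurvival genes were higher and 1 was lower. Of all genes tested, 12.1% were higher and 11.6% lower. The median log2 fold change of the list was 0.18. Like the other lists, it was chosen with earlier results of these data known. The serine/threonine kinase gene Pim2 had 315, 237 and 451 normalized counts in sham-treated and 3597, 3529 and 3841 in EV-treated samples (log2 fold change 3.45, edgeR adjusted p = 5.67e-07). Jak2, a kinase of the common β chain receptors, rose from 5368 ± 160.3 to 14278 ± 250.3 (SD, n = 3 each), a log2 fold change of 1.41. Of the transcription factors, Stat3 and Nfkb1 rose by log2 fold changes of 0.30 and 0.29, whereas Rel, an NF-κB subunit known to act on A1 genes, fell by 0.49 (adjusted p = 0.000104). Stat5a, Stat5b, Rela, Relb and Nfkb2 did not pass, with log2 fold changes between -0.10 and 0.081. The values of this list describe transcripts and say nothing about phosphorylation or nuclear entry.

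The genes whose levels most resembled each member over the 6 samples were found by the root mean square (RMS) difference of centred log2 normalized counts among 10453 other genes with a mean over 100. For Bcl2a1a they were Ikzf4, Socs1 and Kcnk5, with RMS differences of 0.260, 0.267 and 0.467 and log2 fold changes of 5.38, 5.10 and 4.26. For Mcl1 they were Cd84, Wipf1 and Man2b1 (0.0301, 0.0352 and 0.0362), for Bcl2 Or1o1, Pira2 and Cd200r3 (0.0864, 0.0873 and 0.103), and for Bcl2l1 Gpr146, Lpar6 and Gm14326 (0.0566, 0.0680 and 0.0838). The nearest gene was Gm7488 for Bcl2l2, Zfp600 for Bcl2a1b and Il1rl2 for Bcl2a1d. The 6 samples are the same as those compared above, so that a gene with a similar difference between the groups ranks high.

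**Figure D5:**
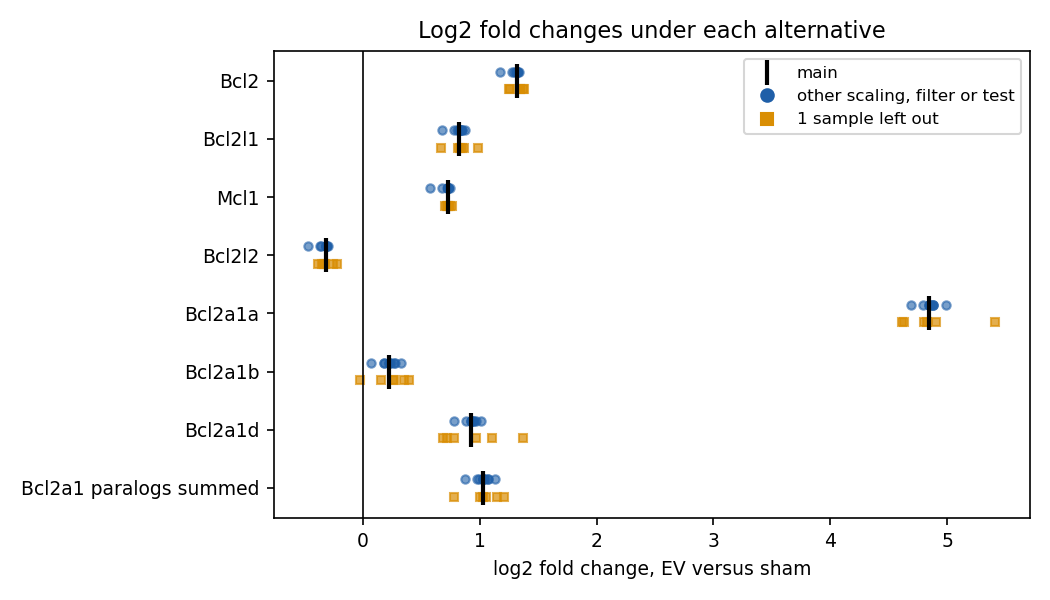
Log2 fold change of EV-treated against sham-treated samples (x axis) for the 7 genes and the summed A1 paralogs: black marks show the main value, blue circles the other scalings, filters and tests, and orange squares the fits with 1 sample left out. Bcl2, Bcl2l1, Mcl1, Bcl2a1a and the sum stay right of 0 throughout, and Bcl2a1b crosses 0 in 1 fit, at -0.029.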

How the data were processed

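RNA from 6 cultures of bone marrow-derived eosinophils, 3 per treatment, was sequenced after poly(A) selection. The authors checked reads with FastQC, trimmed them with Cutadapt and quantified them with Salmon, with DESeq2 for their own comparison, and the submitters' processing notes name mm10. Versions, annotation and strandedness are not given in the sources used here. The authors deposited estimated counts, and also normalized counts, a signal scaled by a size factor per sample. The deposited table of the authors' own comparison (fold changes and p-values) was not used.

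Estimated counts were rounded and tested with edgeR 4.0.16 in R 4.3.3 (TMM, filterByExpr, quasi-likelihood F test), with Benjamini-Hochberg adjustment over 13498 genes and a threshold of 0.01. The filter removed 2756 genes and no member. Standard errors (SE) were taken from each log2 fold change and its F statistic, and normalized counts from rounded counts and effective (TMM) library sizes scaled to their geometric mean over the 6 samples. For the sum of A1 paralogs, 3 rows were added before rounding. DESeq2 1.42.0 and limma 3.58.1 gave alternatives. The edgeR fit was tested on simulated data that gave all genes the same dispersion. There it recovered 127 of 200 simulated 2-fold changes with 2 false calls. A change of that size can thus fail to pass. Real genes differ in spread, so the share recovered does not apply to any single member. At this depth, counting error is small against the spread between replicates except for genes with few counts. The p-values set the difference between groups against the spread among the 3 labelled biological replicates of each group. That spread was moderated across genes, and the sources used here do not say what varied between replicates.

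Members and gene lists were chosen with earlier results of these data known. The genes named are the members, the genes of the fixed lists and the 3 genes most like each member (pseudocount 0.5). Coordinates and transcripts are from GENCODE vM21 (GRCm38, the assembly of mm10), and promoter windows from RefSeq (GRCm38.p6). All 7 members matched both by symbol. Words of 31 bases were compared on the transcript strand. No protein sequences were used here, and some genes of the lists are not reported here. Alignments used Biopython 1.88.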

Additional observations from a re-analysis of the deposited data

How the results depend on the processing

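The log2 fold changes of Bcl2, Bcl2l1, Mcl1 and Bcl2a1a kept their sign and an adjusted p under 0.01 in every alternative run: other scalings, no filter, DESeq2, limma on both tables, thinned libraries, the replicate block and each sample left out. Of 134 values for the 7 genes and the A1 sum, 130 kept their direction and their side of the threshold. Some of these could not change. A call at 0.01 is kept at the looser threshold of 0.05, and the alternative that sums the paralogs repeats the A1 sum. With samples left out, Bcl2a1b ranged from -0.029 to 0.40, reversed at -0.029 without sham replicate 1, and the A1 sum from 0.78 to 1.20, with an adjusted p up to 0.0123. Adding Gm29094 to that sum, chosen after seeing the data, gave 1.03. At an adjusted p under 0.05, Bcl2l2 passed with -0.32, and 2478 genes were lower in place of 1572. Genes higher numbered 1036 with library totals alone in place of 1632. With samples left out, higher genes numbered 1071 to 1833 and lower genes 1018 to 1698, with the lowest counts without EV replicates 3 and 2.

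The replicate block gave 1794 higher and 1781 lower genes and changed no call of a member. Same-numbered samples deviated together only weakly across genes, with r of 0.0972, 0.0816 and 0.0462. Each sample did correlate best with its own number, a hint from the data and not from the design. The numbers were therefore not taken as pairs. Depth limits Bcl2a1a and Bcl2a1d in sham-treated samples, where they had 20 to 54 and 58 to 115 counts, and reads shared between paralogs limit how exactly each is known.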
